A study of Homo sapiens with 12 samples.

Results

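The interferon-stimulated genes are genes whose transcription rises when a cell senses interferon. A list of 41 such genes was followed here across 8 established human tumor cell lines. The members were found by symbol: an array feature counted when its platform annotation gave a member as its only gene, and the features of a gene were averaged. By that rule 39 of the 41 genes were measured, through 71 features, among 18334 named genes on the arrays. STAT2 and CMPK2 were not analysed here. Of the measured members 18 had more than 1 feature.

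Interferons are secreted proteins that warn neighbouring cells of infection. Type I and type III interferons bind their receptors and activate the kinases JAK1 and TYK2, and a complex that holds IRF9 then enters the nucleus. That complex binds the interferon-stimulated response element (ISRE) in promoters, whereas interferon gamma acts at another element called GAS. The products block virus entry, replication and assembly, sense foreign RNA, or attach the ubiquitin-like protein ISG15 to other proteins. Many tumor cell lines also express a part of these genes with no interferon added to the culture.

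RNA of each line was labelled with Cy5 and hybridised with a common Cy3-labelled reference of whole human total RNA, on 12 two-colour arrays in all. A single array without a media label represented each of HCT-116, SW620, Capan2, HPAC and HPAFII. HT29 (replicates 2 and 4) and Panc1 (replicates 1 and 4) had 2 arrays each with the label DMSO, a common solvent. MiaPaca2 had 2 DMSO arrays (replicates 1 and 2) and 1 array without a media label, and its values are always given with that array before the DMSO arrays. No interferon, virus or other agent is named for any line. The series' design text calls all 8 lines pancreatic, but HCT-116, HT29 and SW620 are catalogued as colorectal carcinoma lines and the other 5 as pancreatic carcinoma lines. Each line descends from 1 tumor, so a difference between lines is one between single lines. No label says that arrays of a line came from separate cultures. The p-values between single lines and across the 8 lines therefore cover array-to-array spread alone, and that spread may be technical. Across the 8 lines it includes the difference in media label within MiaPaca2. HT29 and Panc1 have DMSO arrays only and the lines with a single array have none. Between these lines, line and media label cannot be told apart. Only the comparison of pancreatic with colorectal lines uses the spread between line means.

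All levels below are deposited log ratios, taken as log2 of the cell line over the reference, which is the likely direction from the dyes. They say how a line compares with the reference for 1 gene, not how much RNA 1 gene makes compared with another. In a culture, more cells that express a gene and more RNA per cell cannot be told apart. Depth does not apply to arrays, and the number of arrays limits the precision. Over all named genes, the correlation was 0.874 to 0.941 within a line and media label and 0.370 to 0.731 between lines. The array medians over all genes lay between -0.03 and 0.03, and the array SDs between 1.077 and 1.542, with HPAFII widest. Of 6 blood cell markers, which include the red-cell globin gene HBB, the pan-leukocyte gene PTPRC was between -3.54 and -2.41 in every line. By contrast, the list's median ran from -0.50 to 0.37, and LYZ, the lysozyme gene, reached 4.65 in HT29 and 4.06 in HPAFII. All 5 epithelial markers were above 0 in Capan2, HPAC, HPAFII, HCT-116 and HT29. By line means 4 were in SW620, only KRT19 (1.50) was in Panc1, and none was in MiaPaca2. On each MiaPaca2 DMSO array 2 of the markers were above 0 (up to 0.33 and 0.64), and on the array without a media label none was. As line means, the adhesion genes EPCAM and CDH1 stood at -0.92 and -2.76 in Panc1 and at -5.82 and -5.40 in MiaPaca2. The line means of the keratin genes KRT8 and KRT18 lay between -0.32 and -0.13 in both.

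The element that the interferon-activated complex binds was searched by its core. Of the genes on which the results turn most, SAMD9L, OAS1, IRF9 and IRF1 held no match. The promoters shown belong to others of these genes, picked because they held a match. They are stretches of the RefSeq windows of GRCh38.p14 (250 bases before to 50 after each annotated start), read 5′ to 3′ on the gene's strand. Capitals mark each match to the core of the ISRE, searched as GAAANNGAAA on both strands, so that a match on the opposite strand reads TTTCNNTTTC. Up to 20 bases are shown on each side.
DDX60 (chr4:168318776-168318825, minus strand): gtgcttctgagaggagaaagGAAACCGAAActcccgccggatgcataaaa
IFI27 (chr14:94110608-94110670, plus strand): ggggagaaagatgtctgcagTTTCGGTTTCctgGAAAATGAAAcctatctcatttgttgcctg
RSAD2 (chr2:6877612-6877661, plus strand): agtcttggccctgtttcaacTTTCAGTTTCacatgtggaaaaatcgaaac
SAMD9 (chr7:93118086-93118135, minus strand): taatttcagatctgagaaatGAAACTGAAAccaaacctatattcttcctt
MX1 (chr21:41431834-41431883, plus strand): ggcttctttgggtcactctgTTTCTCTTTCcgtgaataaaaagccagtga
ISG15 (chr1:1013364-1013419, plus strand): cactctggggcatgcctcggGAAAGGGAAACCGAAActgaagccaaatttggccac
IFIT1 (chr10:89392487-89392549, plus strand): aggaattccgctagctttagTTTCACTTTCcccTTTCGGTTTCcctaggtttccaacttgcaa
BST2 (chr19:17405725-17405780, minus strand): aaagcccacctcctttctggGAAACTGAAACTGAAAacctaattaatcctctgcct
In ISG15 and BST2 the capitals are 2 overlapping matches that share a GAAA, and in IFIT1 and IFI27 they are 2 matches with 3 bases between them. The matches of ISG15 ran from position -113 to -98 relative to its start, those of IFIT1 from -116 to -94 and those of BST2 from -130 to -115. The match shown for MX1 lies at -196 to -187. Its other match, at 11 to 20, was counted from another annotated start of the gene and lies after it. DDX60 held 2 matches, at -88 to -79 and at -53 to -44, of which the one nearer the start is shown.

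Of 32 measured members with a promoter window, 23 (71.9%) held an ISRE core, against 1195 of 27305 genes with a window (4.38%) and 586 of 14411 such genes on the arrays (4.07%). The GAS motif, searched as TTCNNNGAA, which reads the same on both strands, was found in 11 of the 32 (34.4%), against 9.38% of all genes with a window. In 5 members an ISRE core and a GAS match overlapped. A gene with several annotated starts was counted once. The other 7 measured members, MX2, OAS2, OASL, IFIT2, IFITM2, IRF7 and USP18, had no promoter window and were not searched. The members with a window but no ISRE core were OAS1, IFI35, IRF1, IRF9, RIGI, HERC6, XAF1, SAMD9L and UBE2L6. These letters describe the windows and are no measurement of binding.

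**Figure D1:**
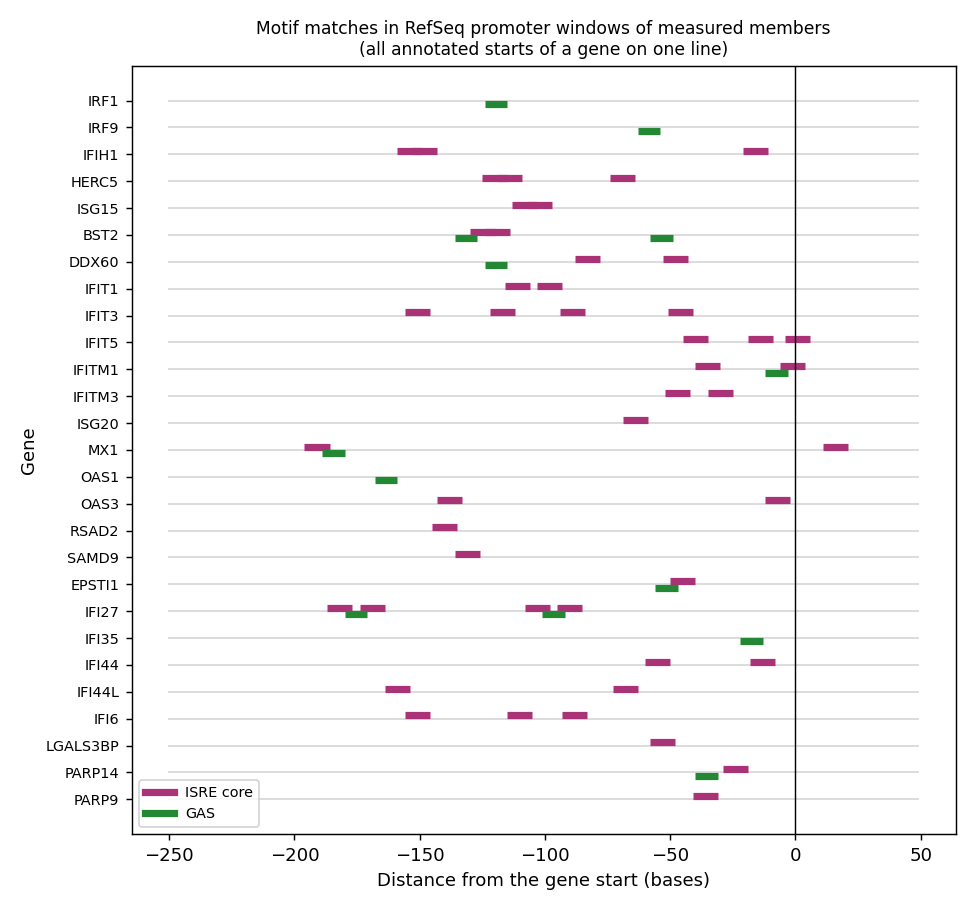
Positions of ISRE core (purple) and GAS (green) matches relative to the gene start, in bases, for the members that hold at least 1 match, 1 row per gene with all its annotated starts together. The ISRE core matches of the printed stretches lie between -196 and -44.

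As a group the members stood highest in HPAC, HPAFII and Capan2. The median over the 39 members was 1.90 in HPAC, 1.61 in HPAFII and 1.19 in Capan2, with 31, 36 and 35 members above 0. It was 0.38 and 0.32 on the HT29 arrays and 0.01 in HCT-116. Both Panc1 arrays lay below 0, at -0.28 and -0.19. SW620 was at -0.88, and the 3 MiaPaca2 arrays were at -0.87, -0.49 and -0.38. The median over all genes lay between -0.03 and 0.03 on each of these arrays.

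By line means, the order of the member medians was HPAC, HPAFII, Capan2, HT29 (0.31), HCT-116 (0.01), Panc1 (-0.37), MiaPaca2 (-0.60) and SW620 (-0.88). The pooled SD of this median between arrays of a line was 0.19 (4 degrees of freedom). Of the 7 gaps between neighbours, only that between Capan2 and HT29 (0.88, SE 0.23) was larger than 2 SEs. That gap sets an array without a media label against DMSO arrays, so line and media label cannot be told apart in it. For lines with a single array, the SE rests on the spread within the lines that have several. Gaps between the other neighbours ran from 0.23 to 0.42. The mean over the members gave the same order except that Panc1 (-0.28) then stood above HCT-116 (-0.35). The order of the medians was the same with arrays shifted to a median of 0, with quantile normalization and with each gene read from its most variable feature.

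**Figure D2:**
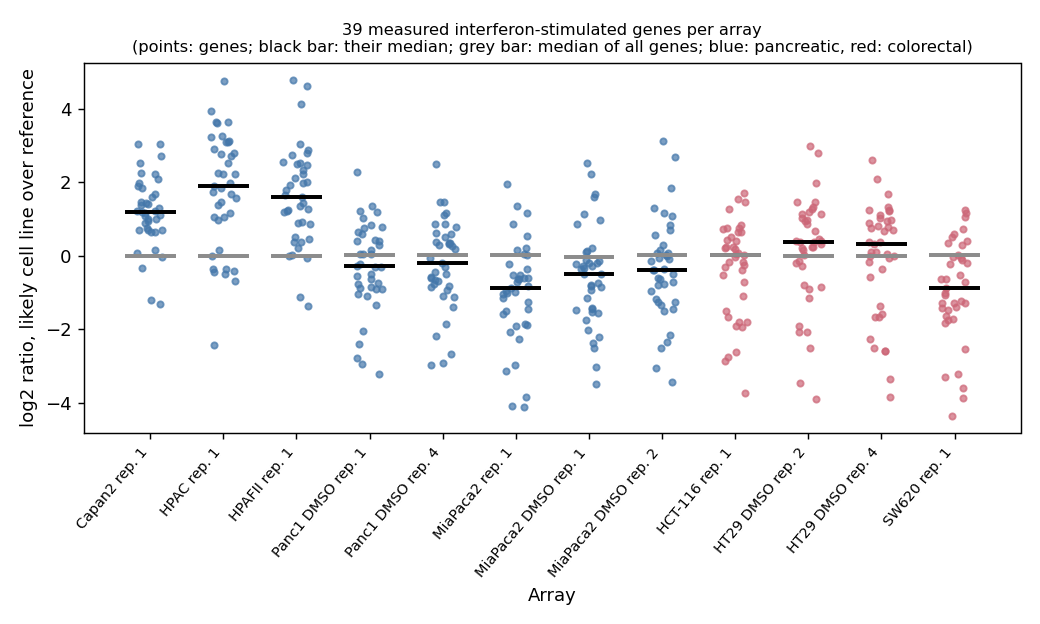
Log2 ratio (y axis) of the 39 measured members on each of the 12 arrays (x axis). Points are genes, the black bar is their median and the grey bar the median of all genes. The black bars of HPAC (1.90), HPAFII (1.61) and Capan2 (1.19) are the 3 highest, and the grey bars stay within 0.03 of 0.

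Single members followed the group to differing degrees. HPAC had the highest line mean for 22 members, HPAFII for 11 and Capan2 for 6, and no member was highest in another line. The lowest line was SW620 for 15 members, MiaPaca2 for 12, HCT-116 for 7, HT29 for 3 and Panc1 for 2. For 20 of the 39 members (51.3%) Capan2, HPAC and HPAFII were the 3 highest lines, which held for 3.97% of all genes. That set of lines was chosen after the members' levels were known. The same 3 lines also stood highest for F3, the gene of tissue factor in the series' title, at 5.72, 5.91 and 6.87 against -1.03 to 1.89 elsewhere. Among the other 19 members, HT29 replaced 1 of the 3 lines for OAS1, IFI6, IFI27, IFI35, IFI44, IFI44L, ISG15, BST2, IRF7 and PARP9. Panc1 did so for MX2, OAS3 and RIGI, and HCT-116 for IFIT5, HERC5 and HERC6. IFITM2 and IFITM3 had Capan2, HCT-116 and Panc1 as their highest lines, and OAS2 had SW620 beside HPAC and HPAFII.

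The members varied more between lines than most genes. The range over the 8 line means had a median of 3.55 (1.41 to 6.44) for members, against 1.56 for all genes. Differences between lines passed the test for 37 of the 39 members (limma F test across 8 lines, Benjamini-Hochberg adjusted over all genes), against 48.7% of all genes. IFI6 (adjusted p = 0.126, limma) and EPSTI1 (2.30 wide, adjusted p = 0.0659, limma) did not pass. IFI6 reached an unadjusted p over 0.05 and EPSTI1 one under it.

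**Figure D3:**
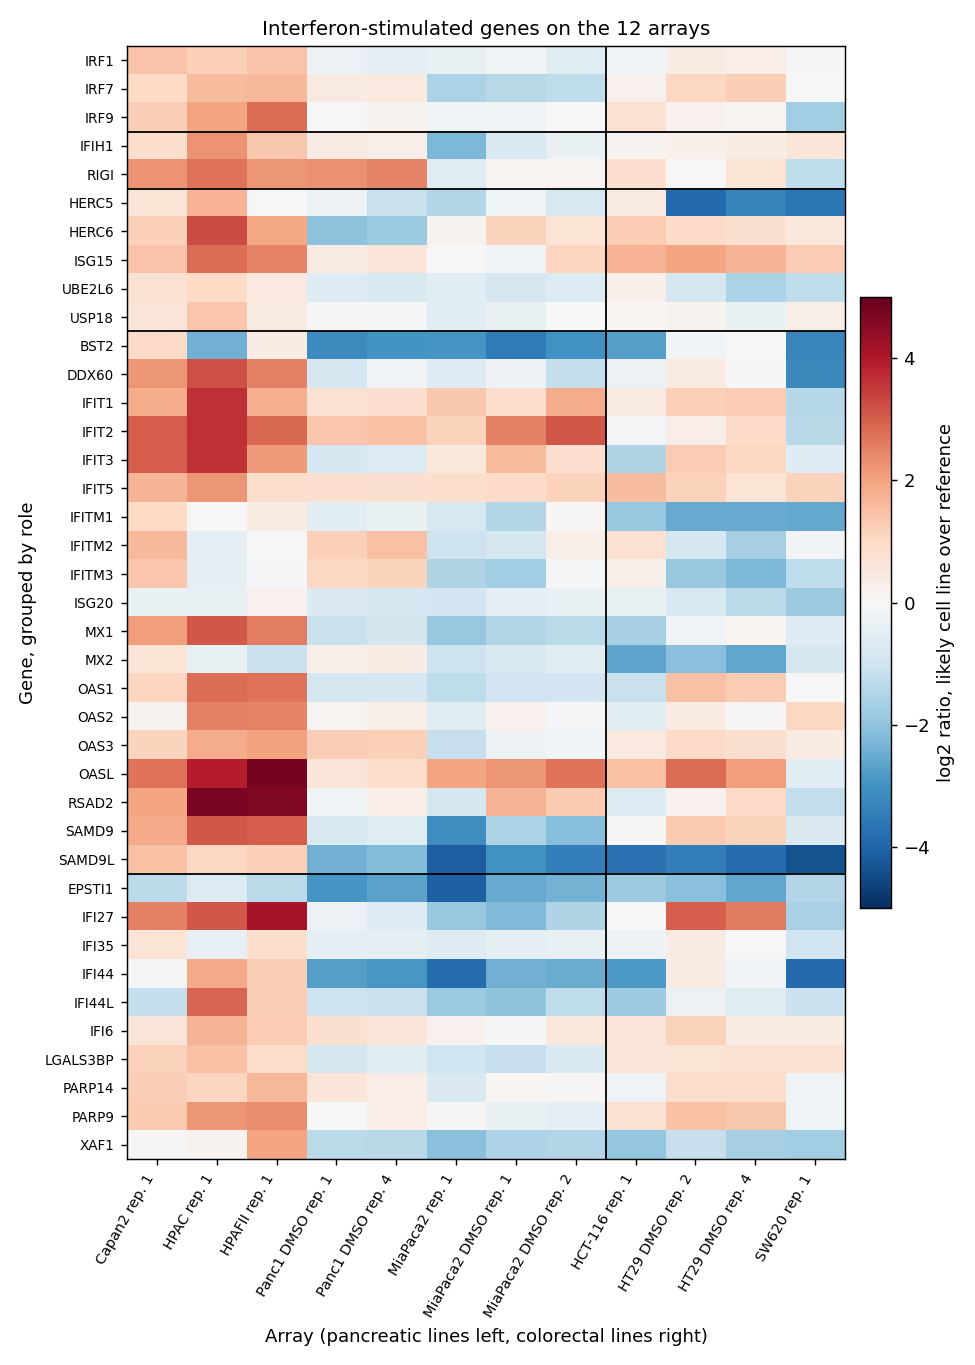
Log2 ratio (colour) of each measured member (rows, grouped by role) on each array (columns, pancreatic lines at the left and colorectal lines at the right). Rows such as MX1 and IRF9 are above 1 in Capan2, HPAC and HPAFII, whereas IFITM3 is above 1 in Capan2 and Panc1.

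The 3 measured transcription factors were above 1 in Capan2, HPAC and HPAFII, and HT29 reached that level for IRF7. IRF9, the DNA-binding part of the complex that type I interferon activates, read 1.99 in HPAC, 2.79 in HPAFII and 1.23 in Capan2. It was 0.75 in HCT-116, 0.21 and 0.11 in HT29, 0.04 and 0.20 in Panc1, -0.22, -0.22 and -0.01 in MiaPaca2, and -1.73 in SW620. All arrays of HT29, Panc1 and MiaPaca2 lay between -0.22 and 0.21, with SW620 far below them and HPAFII at the top (F test adjusted p = 0.000107, limma).

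IRF7, which amplifies the production of interferon alpha, read 1.61 on the HPAFII array and 1.57 and 1.00 for HPAC and Capan2. The HT29 arrays were in the same range at 1.02 and 1.22, and Panc1 gave 0.44 and 0.51. HCT-116 read 0.22 and SW620 -0.03, and MiaPaca2 read -1.57, -1.41 and -1.25. MiaPaca2 thus stood below all other arrays for this factor, with a spread of 0.32 between its 3 arrays. The 2 features of IRF7 differed by up to 2.52 within a line, and they had different highest lines.

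IRF1, a factor induced mainly by interferon gamma, showed a narrower picture. Its values were 1.43 in HPAFII, 1.41 in Capan2, 1.18 in HPAC, and 0.39 and 0.32 in HT29. All other arrays were below 0: SW620 at -0.06, HCT-116 at -0.18, Panc1 at -0.31 and -0.44, and MiaPaca2 at -0.36, -0.20 and -0.62. Panc1 and MiaPaca2 overlapped.

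The RNA sensors RIGI and IFIH1, which detect viral RNA in the cytoplasm, differed in Panc1. RIGI read 2.71 in HPAC, 2.26 in Capan2, 2.21 in HPAFII, and 2.27 and 2.49 in Panc1. It was 0.83 in HCT-116, 0.03 and 0.68 in HT29, -0.60, 0.12 and 0.16 in MiaPaca2, and -1.28 in SW620. Panc1 therefore shared the RIGI level of the 3 high lines and did not overlap with HT29 or MiaPaca2. IFIH1 was 2.25 in HPAC, 1.35 in HPAFII, 0.89 in Capan2 and only 0.34 in Panc1 as line means, and its lowest value was -2.26 on the MiaPaca2 array without a media label.

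The antiviral effectors were the largest role group, with 19 measured members, and all 19 passed the F test, against 48.7% of all genes. Their median was 2.53 in HPAC, 2.01 in HPAFII and 1.61 in Capan2. It was 0.22 in HT29, 0.05 in Panc1, -0.39 in HCT-116, -0.60 in MiaPaca2 and -0.88 in SW620.

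DDX60, a helicase-like protein linked to antiviral RNA sensing, had the widest range of all members (6.44). It read 3.23 in HPAC, 2.52 in HPAFII and 2.22 in Capan2. The remaining arrays were at 0.46 and -0.05 in HT29, -0.30 in HCT-116, -0.87 and -0.19 in Panc1, -0.63, -0.28 and -1.18 in MiaPaca2, and -3.21 in SW620. Every array of the last 5 lines lay below 0.5, and SW620 stood alone at the bottom. Its promoter holds the ISRE core shown above and another farther out.

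RSAD2 encodes viperin, an enzyme that makes a chain-terminating nucleotide which stops viral RNA synthesis. HPAC (4.76) and HPAFII (4.62) stood far above Capan2 (1.97). The MiaPaca2 arrays split into -0.87 without a media label against 1.68 and 1.31 with DMSO. HT29 gave 0.23 and 0.97, Panc1 -0.23 and 0.32, HCT-116 -0.70 and SW620 -1.22. Its SD between arrays of a line (0.72, moderated) was the largest among the members, and its 2 features differed by up to 2.08 within a line.

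SAMD9 and SAMD9L are neighbouring paralogs that restrict poxviruses and inhibit translation, and they differed in which lines they separated. SAMD9 was 3.10 in HPAC, 3.04 in HPAFII, 1.89 in Capan2, 1.33 and 1.11 in HT29, and 0.06 in HCT-116. Panc1 gave -0.77 and -0.60, SW620 -0.71, and MiaPaca2 -3.12, -1.56 and -2.14. SAMD9L was above 0 on 3 arrays only, at 1.46 in Capan2, 1.20 in HPAFII and 1.04 in HPAC.
All other arrays were below -2 for SAMD9L. They read -2.41 and -2.19 in Panc1, -3.46 and -3.85 in HT29, -3.72 in HCT-116, -4.12, -3.01 and -3.44 in MiaPaca2, and -4.36 in SW620. HT29 thus belonged with the higher lines for SAMD9 and with the lower ones for SAMD9L. The 4 features of SAMD9 differed by up to 2.63 within a line.

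OASL, a relative of the oligoadenylate synthetases that enhances RIGI signalling, was above 0 on every array but 1. It stood at 4.79 in HPAFII, 3.94 in HPAC, 2.71 in Capan2, 2.80 and 2.08 in HT29, and 1.96, 2.22 and 2.70 in MiaPaca2. HCT-116 gave 1.47, Panc1 0.64 and 0.88, and SW620 -0.51. MiaPaca2, low for most members, overlapped with HT29 here.

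OAS1, which makes the second messenger that activates RNase L, set the lines apart in another order. HPAC (2.77) and HPAFII (2.73) were highest, followed by HT29 at 1.47 and 1.25 and Capan2 at 1.09. SW620 was at 0.03, Panc1 at -0.90 and -0.85, HCT-116 at -1.10, and MiaPaca2 at -1.27, -0.94 and -0.97. The Panc1 and HT29 pairs were each within 0.22, so the gap between them exceeded their spread.

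MX1, a dynamin-like GTPase that traps viral nucleocapsids, read 3.12 in HPAC, 2.56 in HPAFII and 2.10 in Capan2. The other arrays were -0.19 and 0.11 in HT29, -0.63 in SW620, -1.09 and -0.93 in Panc1, -1.67 in HCT-116, and -1.90, -1.45 and -1.33 in MiaPaca2. Nothing lay between 0.11 and 2.10. Its paralog MX2, which acts at the nuclear envelope, had its highest line mean in Capan2 (0.70) and then in Panc1 (0.34), and HPAC and HPAFII were below 0.

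IFIT1 binds viral RNA that lacks the host cap methylation. It was 3.63 in HPAC, 1.85 in Capan2, 1.81 in HPAFII, 1.20 and 1.25 in HT29, and 1.37, 0.87 and 1.85 in MiaPaca2. Panc1 read 0.77 and 0.85, HCT-116 0.41 and SW620 -1.41. SW620 was the only array below 0. IFIT5, a relative that binds RNA with a 5′ phosphate, had the narrowest range of all members (1.41).
IFIT5 was above 0 on all arrays, from 0.69 on HT29 replicate 4 to 2.22 in HPAC. It read 1.68 in Capan2, 1.54 in HCT-116, 1.17 in SW620, 1.15 on the other HT29 array and 0.89 in HPAFII, with Panc1 at 0.84 and 0.78 and MiaPaca2 at 0.87, 0.97 and 1.15. The HT29 arrays overlapped with those of Panc1 and of MiaPaca2.

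BST2, or tetherin, holds budding virus at the cell surface. It read 0.94 in Capan2, 0.38 in HPAFII, and -0.13 and 0.01 in HT29, and it was between -3.49 and -2.42 in the other 5 lines, HPAC included. HPAC, highest for most members, was thus at -2.42 for BST2. IFITM1, IFITM2 and IFITM3, membrane proteins that block virus fusion, also departed from the group, with their highest line means in Capan2 (1.00, 1.61 and 1.40) and HPAC at -0.00, -0.48 and -0.45. These 3 genes are related in sequence, so how much of each value comes from the other genes is uncertain.

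Of the genes around ISG15 conjugation, ISG15 itself, the ubiquitin-like modifier, was above 0 on 11 of the 12 arrays. It read 2.79 in HPAC, 2.49 in HPAFII, 1.99 and 1.69 in HT29, 1.72 in HCT-116, 1.44 in Capan2 and 1.26 in SW620. Panc1 gave 0.40 and 0.61, and MiaPaca2 0.03, -0.14 and 1.09. All arrays of the 3 colorectal lines were above those of Panc1 and MiaPaca2 for this gene.

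HERC5, the ligase that attaches ISG15, separated the lines differently from ISG15. It was 1.73 in HPAC, 0.69 in Capan2, 0.44 in HCT-116 and 0.03 in HPAFII, whereas HT29 read -3.90 and -3.36 and SW620 -3.61. Panc1 was between, at -0.28 and -1.10, as was MiaPaca2, at -1.45, -0.20 and -0.79. HT29 thus combined ISG15 values among the higher ones with HERC5 values at the bottom, next to SW620. HERC6, a related ligase, was lowest in Panc1 (-2.05 and -1.86) and above 0 on all other arrays, up to 3.27 in HPAC.

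USP18 removes ISG15 and dampens the type I receptor. It stayed within 1.66 over the lines, at 1.38 in HPAC, 0.66 in Capan2, 0.47 in HPAFII, 0.28 in SW620 and 0.09 in HCT-116. HT29 read 0.17 and -0.36, Panc1 0.06 and -0.07, and MiaPaca2 -0.51, -0.37 and 0.03. The arrays of these last 3 lines overlapped. UBE2L6, the enzyme that passes ISG15 to the ligase, ranged from -1.28 in SW620 to 0.99 in HPAC.

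Among the remaining members, IFI27, a mitochondrial protein, was the widest. HPAFII gave 4.14 and HPAC 3.09, with 2.99 and 2.60 in HT29, 2.54 in Capan2 and 0.01 in HCT-116. Below 0 were Panc1 at -0.29 and -0.65, SW620 at -1.62, and MiaPaca2 at -1.88, -2.22 and -1.50. HT29 lay among the 3 high lines and shared no value with Panc1 or MiaPaca2. Its 11 features gave line ranges from 5.22 to 6.36, all with the same highest line.

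IFI44, a protein with a GTP-binding motif, read 1.90 in HPAC, 1.25 in HPAFII, 0.38 and -0.16 in HT29, and -0.04 in Capan2. The other 4 lines were all below -2, with Panc1 at -2.77 and -2.92, MiaPaca2 at -3.84, -2.38 and -2.49, HCT-116 at -2.86 and SW620 at -3.87. Its neighbour IFI44L also peaked in HPAC (2.91), but Capan2 was at -1.20. IFI6, which protects mitochondria from apoptosis signals, spanned only 1.47.
IFI6 read 1.69 in HPAC, 1.27 in HPAFII, 1.15 and 0.37 in HT29, 0.78 and 0.62 in Panc1, 0.65 in HCT-116, 0.64 in Capan2, 0.36 in SW620, and 0.22, -0.11 and 0.58 in MiaPaca2. The 2 HT29 arrays alone spanned 0.78. Its 2 features disagreed, with line ranges of 0.42 and 2.72, so its narrow range depends on the feature.

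**Figure D4:**
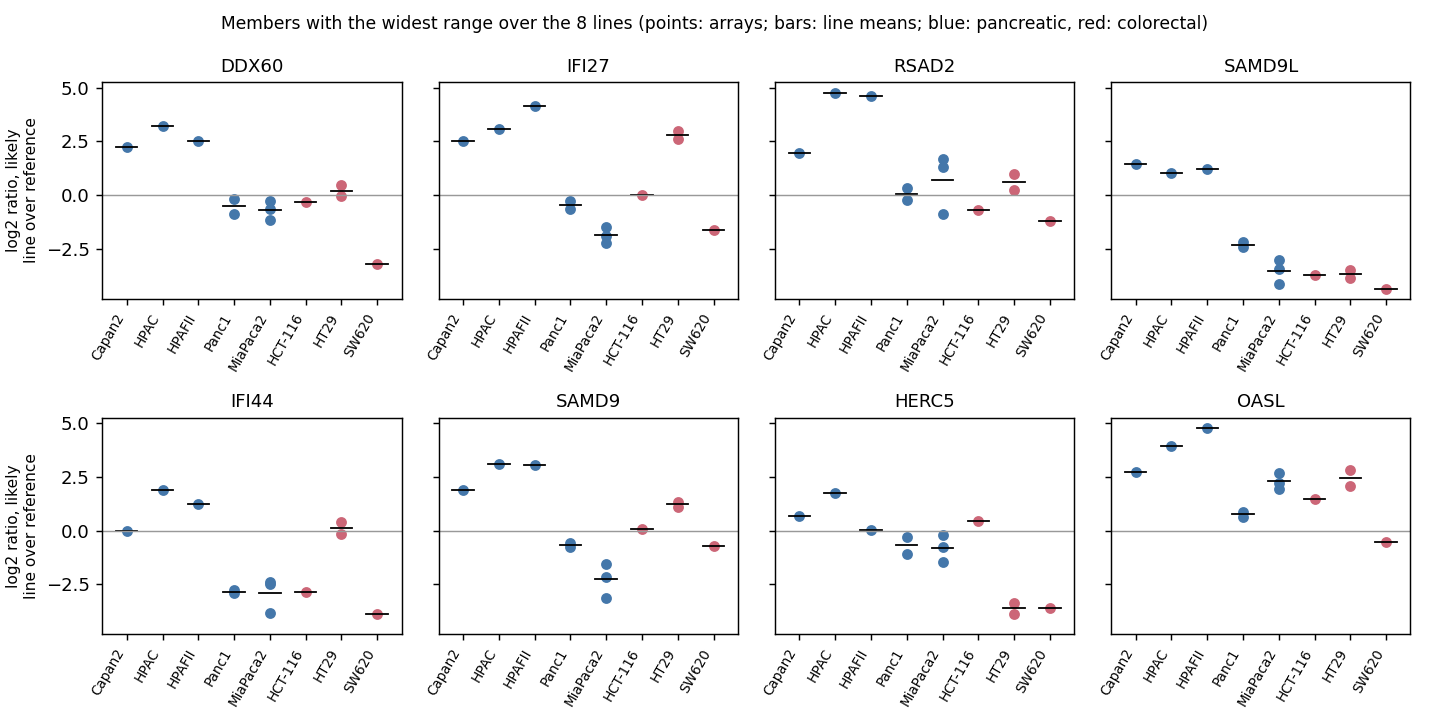
Log2 ratio (y axis) of the 8 members with the widest range over the 8 lines (x axis), with a point per array and a bar at each line mean. DDX60 runs from -3.21 in SW620 to 3.23 in HPAC, and HERC5 is lowest in HT29 and SW620.

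The lines with a pair of DMSO-labelled arrays allow a test of single members. Differences below are the log2 value of the line named first minus the other, tested with limma and adjusted over all 18334 genes, and a called difference has an adjusted p under 0.05. The 3 comparisons share arrays, so they are not independent of each other.

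Panc1 differed from HT29 in both directions. Of the 39 members 15 were lower in Panc1, against 15.9% of all genes, and 7 were higher, against 21.4%. The median difference was -0.41 for the members and 0.07 for all genes. The lower members were led by IFI27, which differed by -3.27 (SE 0.30, adjusted p = 9.3e-05, limma), and BST2, by -3.03 (SE 0.24, adjusted p = 4.42e-05, limma). IFI44 (-2.96), HERC6 (-2.85), OAS1 (-2.23) and IFIT3 (-1.94), a partner of IFIT1, were also lower. MX1, OASL, SAMD9, ISG15, PARP9, IFI35, LGALS3BP, IRF1 and IRF7 were lower by smaller differences, from -1.90 for SAMD9 to -0.65 for IRF7. Of these, MX1, ISG15, PARP9, IFI35, IRF1 and IRF7 lost their call without at least 1 of the Panc1 or HT29 arrays (differences from -1.48 to -0.48). The higher members were IFITM3 (3.15, SE 0.46, adjusted p = 0.00111, limma), HERC5 (2.94), MX2 (2.67), IFITM2 (2.60), IFITM1 (2.08), RIGI (2.03) and SAMD9L (1.36). IRF9 differed by -0.04 (SE 0.22, adjusted p = 0.901, limma), and its sign turned when HT29 replicate 2 (0.01) or Panc1 replicate 1 (0.03) was left out. Without Panc1 replicate 1 the number of lower members was 9.

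MiaPaca2 was lower than HT29 for a similar number of members. There were 15 lower members, against 14.5% of all genes, and 4 higher ones, against 17.4%, with a median difference of -0.22 (0.03 for all genes). IFI27 gave the largest difference, -4.65 (SE 0.30, adjusted p = 1.64e-05, limma). BST2 (-3.20), SAMD9 (-3.07), IFI44 (-2.55), OAS1 (-2.31), PARP9 (-1.81), an ADP-ribosyltransferase family member, and LGALS3BP (-1.67), a secreted galectin-binding glycoprotein, were lower too. IRF7 was lower too, with a difference of -2.45 (SE 0.21, adjusted p = 8.4e-05, limma) and of -3.84 when read from its most variable feature. Smaller lower differences were called for MX1, OAS3, ISG15, IFI44L, IFIH1, PARP14 and IRF1, and the last 5 of these lost the call without at least 1 array (differences from -1.98 to -0.55). Higher in MiaPaca2 were HERC5 (3.13), IFIT2 (2.18), an RNA-binding relative of IFIT1, IFITM1 (1.81) and MX2 (1.65). The IFITM1 call was lost without either HT29 array (adjusted p from 0.000967 to 0.0675 over all alternatives, limma), and its size was 2.59 or 1.04 with MiaPaca2 DMSO replicate 1 or 2 left out. IRF9 differed by -0.28 (SE 0.22, adjusted p = 0.375, limma).

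MiaPaca2 and Panc1, both low as a group, still differed in single members. MiaPaca2 was lower for 10 members, against 11.3% of all genes, and higher for 5, against 7.4%. The median difference was -0.18 (-0.05 for all genes). HERC6 was higher in MiaPaca2 by 2.88 (SE 0.24, adjusted p = 0.000118, limma), as were IFIT3 (2.00), OASL (1.70), RSAD2 (1.45) and IFIT2 (1.41). RIGI was lower, with a difference of -2.24 (SE 0.27, adjusted p = 0.000836, limma), as were IFITM3 (-1.99), IRF7 (-1.80), IFITM2 (-1.61), OAS3 (-1.39), an oligoadenylate synthetase, IFI27 (-1.39) and SAMD9 (-1.17). MX2, IFIH1 and SAMD9L were lower by 1.02 or less. IRF9 differed by -0.23 (SE 0.22, adjusted p = 0.523, limma).
These counts rested on few arrays. Leaving out Panc1 replicate 1 left 3 lower and 3 higher members, Panc1 replicate 4 left 4 lower ones and MiaPaca2 DMSO replicate 1 left 6. With the 3 MiaPaca2 arrays as 1 group, RSAD2 and IFIT2 stood at 0.66 and 0.86 and were no longer called. RSAD2 also lost its call without Panc1 replicate 1 (1.17) or MiaPaca2 DMSO replicate 1 (1.26), and IFIT2 without either Panc1 array (1.36 and 1.45) or MiaPaca2 DMSO replicate 2 (1.11). IFITM2 lost it without either Panc1 array (-1.74 and -1.47) or MiaPaca2 DMSO replicate 1 (-1.03). IFITM3 did so without either Panc1 array (-2.04 and -1.94), and it was called at -1.17 without MiaPaca2 DMSO replicate 1. The same loss was seen for IFI27 without Panc1 replicate 1 (-1.21) or MiaPaca2 DMSO replicate 1 (-1.03), and for SAMD9 without either Panc1 array (-1.26 and -1.08) or MiaPaca2 DMSO replicate 2 (-0.88). MX2, IFIH1 and SAMD9L lost their calls without either Panc1 array and without 1 of the MiaPaca2 DMSO arrays (differences from -1.14 to -0.71). Calls of these 9 members therefore depended on single arrays, whereas those of HERC6, RIGI, IFIT3, IRF7, OASL and OAS3 passed with every array left out in turn. Read from its most variable feature, IRF7 was lower by a larger difference (-3.28), as was SAMD9 (-2.22).

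**Figure D5:**
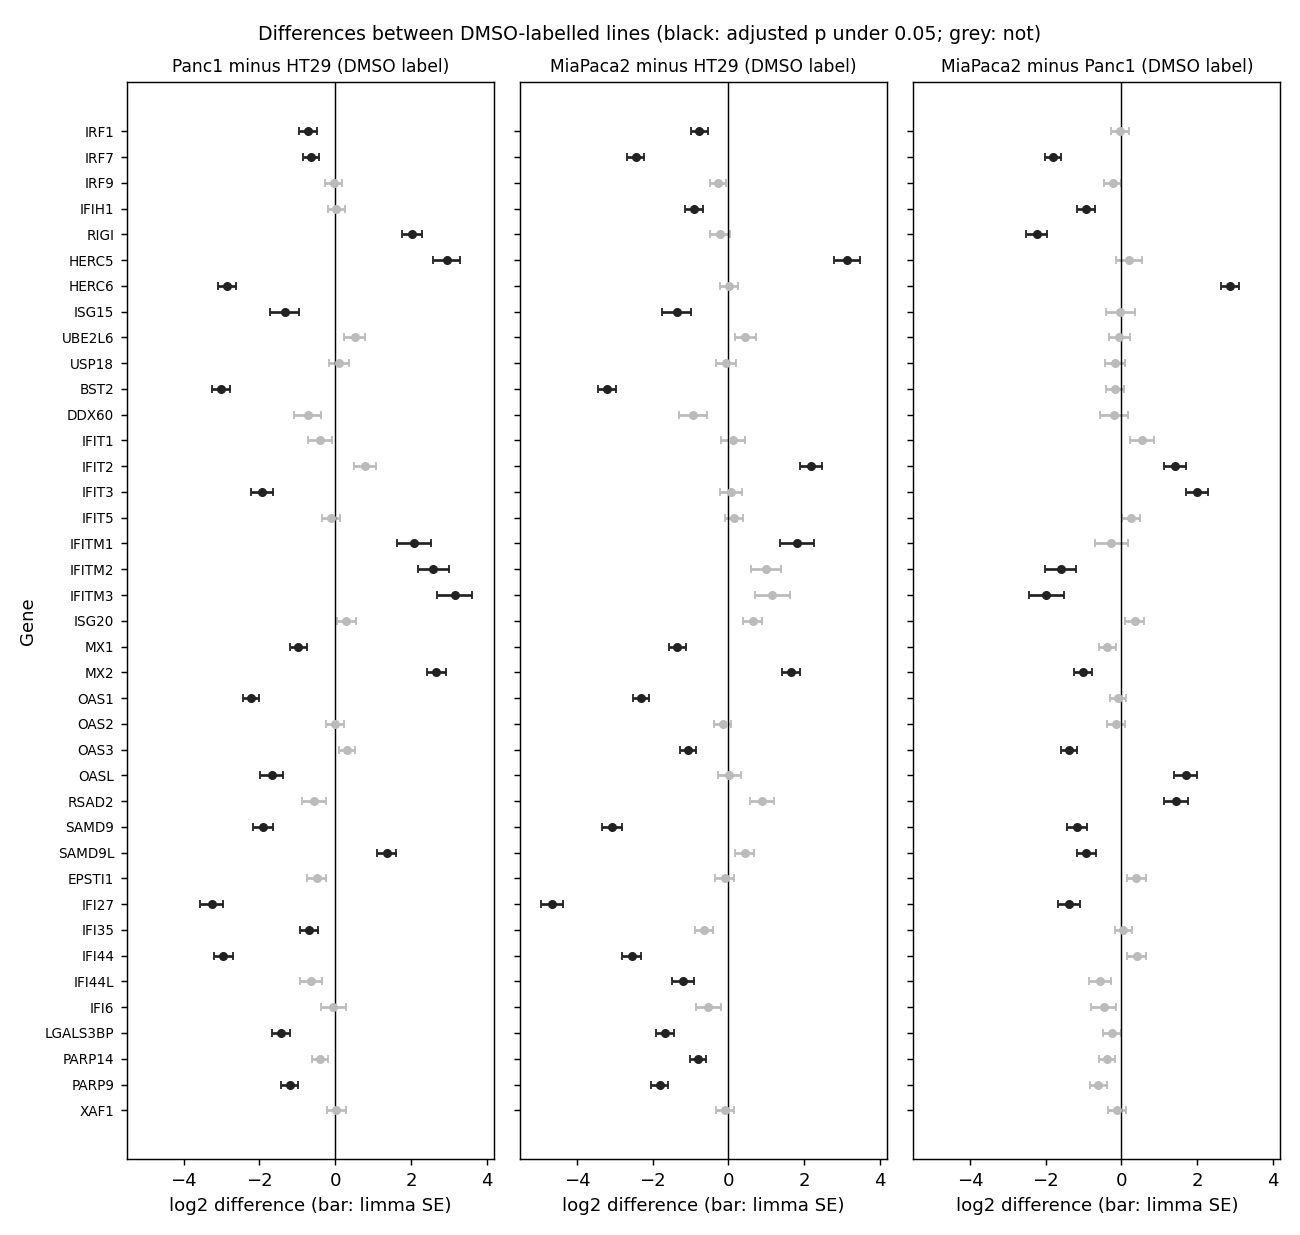
Log2 difference (x axis, bars are limma SEs) of each member (rows) in the 3 comparisons of DMSO-labelled lines, in black where the adjusted p is under 0.05. IFI27 lies at -3.27 and -4.65 in the comparisons with HT29, and IFITM3 lies at 3.15 in Panc1 minus HT29 and -1.99 in MiaPaca2 minus Panc1.

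The MiaPaca2 array without a media label read lower than the DMSO-labelled pair for most members. The difference was below 0 for 33 of 39 members, with a median of -0.51 (-0.05 for all genes). RSAD2 was the 1 member called lower, with a difference of -2.36 (SE 0.39, adjusted p = 0.0475, limma), and none was higher, while 0.3% of all genes were called lower and 0.3% higher. That call was lost with arrays shifted to a median of 0, with quantile normalization, with low-variance genes left out, and without either HT29 array or either MiaPaca2 DMSO array (adjusted p from 0.0334 to 0.122 over all alternatives, limma). At an unadjusted p under 0.05 there were 11 members, against 17.0% of all genes. All 5 epithelial and all 5 mesenchymal markers were also below the DMSO pair (medians -0.75 and -0.80), as were all 8 liver genes (-0.47). Over all genes the SD was 1.245 on the array without a label, against 1.082 and 1.077 on the DMSO arrays. Whether such wider spread plays a part in the result was not tested. With 1 array in a group, media label and array cannot be told apart.

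The mean of the 5 pancreatic lines was above that of the 3 colorectal lines for 37 of the 39 members, by a median of 0.84 (-0.01 for all genes), with ISG15 and LGALS3BP the exceptions. Single lines did not follow the split: the member medians of Panc1 (-0.37) and MiaPaca2 (-0.60) were below those of HT29 (0.31) and HCT-116 (0.01). No member passed the test on the 8 line means in either direction, against 0.0218% of all genes called higher and 0.0% called lower (limma). Unadjusted p-values under 0.05 were found for 8 members, against 8.14% of all genes. IFITM1 differed by 2.37 (SE 0.41, adjusted p = 0.203, limma) and IFIT2 by 2.92 (SE 0.59, adjusted p = 0.285, limma).

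Other genes of the pathway were read from lists in the order of signalling. Of 16 measured interferon genes 1 passed the F test (48.7% of all genes), IFNE, a type I interferon of epithelia. Its line means were 4.16 in HPAFII, 3.003 in HPAC, 2.12 in Capan2, 1.72 in HT29, 1.53 in Panc1, 0.27 in HCT-116, -1.10 in SW620 and -1.32 in MiaPaca2 (adjusted p = 0.00145, limma). HPAFII, HPAC and Capan2 were thus the 3 highest lines for this gene as well. IFNB1, the interferon beta gene, stood between -0.02 and 1.03. The interferon list's median lay between 0.19 and 0.70 in every line. IFNE was lower in MiaPaca2 than in HT29 (-2.84, 14.5% of all genes called lower) and Panc1 (-2.65, 11.3% of all genes). IFNG, the interferon gamma gene, was called lower in Panc1 than in HT29 (-1.03, 15.9% of all genes). Its line means were -0.60 in Panc1 and 0.43 in HT29, and it did not pass the F test (adjusted p = 0.1825, limma).

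Of 18 measured receptor and signalling genes 9 passed the F test, a share near the 48.7% of all genes. The widest was IRF5, an interferon regulatory factor of Toll-like receptor signalling, which was highest in HCT-116 (1.35) and lowest in HPAC (-1.22) and HPAFII (-2.44). Panc1 was higher than HT29 for 4 of these genes (21.4% of all genes), such as the feedback inhibitor SOCS3 (2.68), and lower for 3 (15.9% of all genes), such as IRF5 (-1.87) and the phosphatase PTPN6 (-1.59). MiaPaca2 was higher than HT29 for 7 (17.4% of all genes), among them IFNGR2 (1.91), and lower (14.5% of all genes) for PTPN6 (-1.70) and IFNGR1 (-1.54), so the 2 chains of the interferon gamma receptor differed in opposite directions. Between MiaPaca2 and Panc1 only IRF5 (1.35) and SOCS3 (-1.30) were called, against 7.4% of all genes called higher and 11.3% lower.

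Of 17 genes of nucleic acid sensing 11 passed the F test, against 48.7% of all genes. The shares of all genes called in the pair comparisons are those given above for the members. TLR3, the endosomal receptor for double-stranded RNA, was the widest, at 3.74 in HPAC and 3.70 in Capan2 but 0.52 in HPAFII, 0.09 in HT29 and -1.74 in SW620. Panc1 was higher than HT29 for 2 of the genes and lower for 3, which were the kinase gene IKBKE (-1.71), TLR3 (-1.50) and the adaptor MYD88 (-1.03). MiaPaca2 was higher than HT29 for 4, with the DNA sensors AIM2 (3.43) and IFI16 (2.37) in the lead, and lower for 3, with IKBKE at -1.13. AIM2 (2.91) and IFI16 (1.58) were also higher in MiaPaca2 than in Panc1, and CGAS, another DNA sensor, was lower (-0.96). These differences use the DMSO arrays alone. On the MiaPaca2 array without a media label IFI16 read -4.52, below its Panc1 mean of -4.17, so its direction against Panc1 depends on the arrays used.

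A list of 43 measured further interferon targets, none of them a member, gave line medians of 0.96 in HPAFII, 0.89 in HPAC, 0.38 in Capan2, -0.11 in HT29, -0.11 in Panc1, -0.25 in HCT-116, -0.41 in MiaPaca2 and -0.68 in SW620. The same 3 lines were therefore highest and SW620 lowest, and 30 of the 43 passed the F test, against 48.7% of all genes. This list was chosen with earlier results of these data known, so it is no independent check of the members. GBP3, a guanylate-binding protein, had the widest range (6.79), from -4.42 in SW620 to 2.37 in HPAC. Panc1 was higher than HT29 for 5 (21.4% of all genes), with the replication-stress factor SLFN11 (4.50) and the chemokine CCL5 (2.77), and lower for 7 (15.9% of all genes), with the scramblase PLSCR1 (-3.08). MiaPaca2 was lower than HT29 for 10 (14.5% of all genes), with PLSCR1 (-3.81) and the death ligand gene TNFSF10 (-2.72), and higher for 3 (17.4% of all genes), with WARS1 (2.42), a tRNA synthetase. The low TNFSF10 value was seen on the DMSO arrays only, and the MiaPaca2 array without a media label lay near the HT29 level. With that array counted, the TNFSF10 line mean was -0.42 in MiaPaca2, against 1.44 in HT29. Against Panc1, MiaPaca2 was lower for 5 (11.3% of all genes), with SLFN11 (-4.09) and CCL5 (-2.02), and higher for 2 (7.4% of all genes), with WARS1 at 1.88.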

How the data were processed

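The authors deposited log2 ratios (the base is assumed from their range, -10.71 to 9.61) for 45220 features, with the line over the reference taken as the likely direction from the dyes in the labels and because 8 liver genes lay below 0 on all arrays. How the authors corrected background and normalized, like base and direction, is not given in the sources used here. No intensities were used. Per the labels, line RNA was extracted with the Qiagen All-prep Kit. Features with 1 annotated symbol (31332) were updated through gene identifiers to RefSeq GRCh38.p14 (31291 matched) and averaged per gene, giving 18334 genes. Exact zeros (0.173% of named values) were kept.

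Two-sided tests came from lmFit and eBayes of limma 3.58.1 (R 4.3.3), with Benjamini-Hochberg adjustment over all genes and a threshold of 0.05. Pairs were compared in a fit of 9 groups of line and media label (3 residual degrees of freedom), the 8 lines by an F test (4), and origin on 8 line means (6). Scripts were tested on simulated data. Promoter windows came from RefSeq GRCh38.p14.

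Members and lists were chosen with earlier results of these data known. Values on every array are given for the 8 members with the widest and the 3 with the narrowest range, and for IRF9, IRF7, IRF1, MX1, ISG15, IFIT1 and OAS1. Differences are given for called members, at most 12 in a comparison of DMSO lines, and for IRF9. In other lists up to 3 called genes per comparison and the widest gene are named. Other genes and values in the text were added after they were seen. Alternatives were arrays shifted to a median of 0, quantile normalization, the most variable feature, robust eBayes, genes with low SD left out, the MiaPaca2 arrays as 1 group, each array left out and, added after seeing the data, the replicate number as a block.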

Additional observations from a re-analysis of the deposited data

Results flagged for a closer look

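RIGI was the 1 of 39 members with a line set apart from the other lines within the 5 pancreatic ones. The 3 colorectal lines are too few for this check and were not examined. For RIGI, MiaPaca2 stood at -0.109, whereas the other 4 lay between 2.21 and 2.71. The gap took up 0.825 of the whole range. About 1 in 20 groups would be picked out this way with no true outlier, so 1 of 39 is below that rate.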

How the results depend on the processing

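Of the 40 differences named in the text, 37 of them called, values with other processing kept direction and call in 271 cases, lost the call in 6 and reversed in 1. With 1 array left out they did so in 217 cases, lost the call in 21 and reversed in 2, both IRF9 in Panc1 against HT29 (-0.1215 to 0.0345). Leaving out 1 array gave 9 to 16 lower and 7 to 8 higher members in Panc1 against HT29, 10 to 14 and 4 to 6 in MiaPaca2 against HT29, and 3 to 10 and 3 to 5 in MiaPaca2 against Panc1, where the 3 MiaPaca2 arrays as 1 group gave 3 higher. The F test then called 34 to 37. For the MiaPaca2 array without a media label, the lower count was 0 with a median shift, quantile normalization or low-SD genes left out, 2 with the most variable feature or robust eBayes, and 0 to 1 with 1 array left out. The member median moved to 1.635 in HPAC and 1.259 in HPAFII with quantile normalization, and to 1.805 in HPAFII with the most variable feature. The cause of these changes was not tested. A replicate block over the 3 DMSO groups, added after seeing the data, left 1 residual degree of freedom, and any pair of groups shares 1 replicate number. It gave 11 lower and 7 higher members in Panc1 against HT29, 12 and 7 in MiaPaca2 against HT29, and 7 and 5 in MiaPaca2 against Panc1, and turned IRF9 in Panc1 against HT29 to 0.0717. Same-numbered arrays deviated from their group means with correlations of -0.134 to 0.144, so the numbers were not taken as pairs. Signal over background is unknown, so ratios of dim features carry more error than the SEs show.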

Other observations

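The genes of class I antigen presentation, which load and carry peptides to the cell surface and which interferon gamma induces, followed another order of lines. Of 14 measured genes 11 passed the F test across the 8 lines, against 48.7% of all genes. Their median was highest in Capan2 (1.50, with all 14 genes above 0), followed by HPAFII (0.62) and HPAC (0.37), and lowest in SW620 (-0.71). HPAC, highest for most interferon-stimulated genes, read -1.33 for the peptide-trimming enzyme ERAP2 and -0.14 for the immunoproteasome subunit PSMB9, against 1.85 and 0.94 in Capan2. In HPAC 10 of the 14 genes were nevertheless above 0. B2M, the light chain of class I molecules, ran from -1.28 in SW620 to 1.96 in Capan2, with HPAC at 1.51.

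Panc1 was higher than HT29 for 4 of the 14 genes (21.4% of all genes), led by the peptide transporter TAP1 (3.12), the heavy chain gene HLA-C (2.01) and ERAP1 (1.36), and lower for 2 (15.9% of all genes). MiaPaca2 was higher than HT29 for 2 (17.4% of all genes), with ERAP1 at 1.87, and lower for 3 (14.5% of all genes), among them ERAP2 (-2.21) and the immunoproteasome subunit PSMB8 (-1.91). HLA-C (-1.33), TAP1 (-1.29) and ERAP2 (-1.21) were lower in MiaPaca2 than in Panc1 (11.3% of all genes), and none of the 14 was higher (7.4% of all genes). Class I heavy chain genes are alike in sequence, so how much of a value comes from related genes is uncertain.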
